A study of Mus musculus with 12 samples.

Results

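Aminoacyl-tRNA synthetases are the enzymes that attach each amino acid to its transfer RNA. All genes of the deposited expression values whose symbol names such an enzyme were taken, which gave 38 of 17007 listed genes. Of these, 21 code for enzymes of the cytosol and 17, with the suffix 2 in the symbol, for enzymes of the mitochondrion. *Gars* and *Kars*, for glycine and lysine, also give rise to the mitochondrial form and were counted as cytosolic. All 38 were found in the GENCODE M21 annotation of GRCm38, and all passed the filter of at least 0.5 FPKM (fragments per kilobase of exon scaled to the size of the library, as the authors deposited them) in at least 3 libraries. The members were chosen by a rule on their names and not on their values. Earlier results of these data were known when the members and all lists used below were chosen.

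RNA of 12 samples was sequenced, 3 in each of 4 groups. Each sample was taken here to come from a separate mouse, which the labels do not state. Normal livers came from WT C57BL/6 mice. The other 9 mice carried floxed *Rictor* and *Tsc2* alleles (Rictor fl/fl Tsc2 fl/fl, C57BL/6J background) and were injected hydrodynamically, through the tail vein, with plasmids for c-MYC, MCL1 and Cre recombinase, a route by which hepatocytes take up DNA. The c-MYC plasmid uses the EF1α promoter, and Cre was carried by a pCMV plasmid. Their c-MYC/MCL1/RictorKO Tsc2KO liver tumors thus lacked, by design, an essential subunit of mTORC2 and the brake on mTORC1, and these alleles and plasmids were shared by the vehicle, MLN0128 and everolimus groups. MLN0128 inhibits the mTOR kinase in both of its complexes, and everolimus, a rapamycin analog, acts on mTORC1. Each drug was given by gavage at 1 mg/kg per day on 6 days a week for 3 weeks, starting 6 days after the injection, and mice were sacrificed 3.7 weeks after it. The length is that of the labels and the methods, while the passage of the study that introduces the sequenced tumors gives 3 days of treatment, so the time on drug is uncertain. The ages of the mice were not given in the sources used here. Whole tissue was measured, so a lower level in fewer cells and a lower level in every cell cannot be told apart.

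Between 17142196 and 25155202 reads per library were recovered from the deposited values, and each member held at least 44 reads in every library. The 8 hepatocyte markers examined, among them albumin and apolipoproteins, summed to 121420 to 133817 FPKM in normal liver and to 2606 to 9687 FPKM in the tumors. The tumors were therefore compared with a tissue far richer in RNA of these markers. Markers of T cells and B cells did not pass the filter. *Xist*, the RNA of the inactive X chromosome, was at 191 and 155 FPKM in MLN0128 replicates 1 and 2 and at no more than 0.0699 FPKM in the remaining 10 libraries, so the MLN0128 group was also set apart by X chromosome content.

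A cell keeps a synthetase for nearly every amino acid, and charged tRNA is what the ribosome reads during elongation. Several cytosolic synthetases sit together in a multisynthetase complex held by the scaffold proteins AIMP1, AIMP2 and EEF1E1, whereas the mitochondrial enzymes are made in the cytosol, imported and serve translation of the mitochondrial genome. ATF4, a transcription factor whose own mRNA is translated when amino acids run short or when mTORC1 is active, is known to raise many of the cytosolic enzymes together with genes of serine and asparagine synthesis. MYC is known to raise genes of protein synthesis more broadly. A list of 12 cytosolic synthetases known as ATF4 targets (*Aars*, *Cars*, *Eprs*, *Gars*, *Iars*, *Lars*, *Mars*, *Nars*, *Sars*, *Tars*, *Wars* and *Yars*) was kept apart from the other 9 (*Dars*, *Farsa*, *Farsb*, *Hars*, *Kars*, *Qars*, *Rars*, *Tarsl2* and *Vars*).

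The DNA around the starts of 28 of the 38 genes was looked at for the letters TGATGNAA, the core of the element that ATF4 binds together with C/EBP proteins, on either strand. The windows came from RefSeq on GRCm38.p6 and reached from 250 bases before to 50 bases after the start, 300 bases in all. The letters were present in 5 of 14 cytosolic genes with a window, all 5 on the ATF4 list, which had 8 members with a window, and in 0 of 14 mitochondrial genes. Among all 27025 genes with a window, 4.51% held them, and among all 32851 windows, 3.97% did. The genes were *Aars*, *Gars*, *Iars*, *Tars* and *Yars*, and only *Aars* held the letters at 2 places, starting 112 bases before the start and at position 9 after it. In *Gars* and *Tars* the match began 30 and 15 bases before the start, and in *Iars* and *Yars* at positions 7 and 3. The windows are shown to be set beside the drug comparisons. The whole *Aars* window (chr8:111033592-111033891, + strand) is followed by up to 30 bases on either side of the match in *Gars* (chr6:55037941-55038008, + strand), *Iars* (chr13:49682107-49682174, + strand), *Tars* (chr15:11399636-11399703, - strand) and *Yars* (chr4:129189876-129189943, + strand). Each is written 5′ to 3′ on the strand of the gene, and capitals mark the match.
Aars: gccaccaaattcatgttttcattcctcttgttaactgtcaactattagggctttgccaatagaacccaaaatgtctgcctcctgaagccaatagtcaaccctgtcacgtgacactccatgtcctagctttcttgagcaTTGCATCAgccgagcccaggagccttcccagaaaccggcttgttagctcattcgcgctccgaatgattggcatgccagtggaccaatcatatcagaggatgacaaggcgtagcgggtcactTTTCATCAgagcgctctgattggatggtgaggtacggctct
Gars: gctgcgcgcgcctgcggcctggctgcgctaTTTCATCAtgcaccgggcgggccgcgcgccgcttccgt
Iars: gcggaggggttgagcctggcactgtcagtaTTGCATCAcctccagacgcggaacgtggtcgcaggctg
Tars: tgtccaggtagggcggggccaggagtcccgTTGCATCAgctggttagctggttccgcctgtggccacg
Yars: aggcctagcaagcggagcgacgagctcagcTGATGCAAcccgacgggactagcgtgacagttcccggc
The E-box letters CACGTG, a site that MYC can bind, lay in the windows of *Aars*, *Farsb*, *Iars*, *Tars* and *Ears2*. Of all genes with a window 8.09% held these letters, and of all windows 7.15% did. No window was at hand for *Cars*, *Hars*, *Lars*, *Nars*, *Rars*, *Vars*, *Wars*, *Hars2* and *Pars2*, among others. A match is only a description of these letters.

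Levels per length differed widely between members. In normal liver, the group means of the cytosolic enzymes ran from 4.18 FPKM for *Tarsl2*, another threonyl-tRNA synthetase, to 65.2 FPKM for *Nars*, the asparaginyl enzyme, with a median of 16.1 FPKM. Leaving aside *Lars2*, treated at the end, the mitochondrial enzymes ran from 0.800 FPKM for *Mars2* to 12.5 FPKM for *Yars2*, with a median of 5.25 FPKM. *Nars* was the highest cytosolic member in all 4 groups and *Yars2* the highest of these mitochondrial members in all 4.

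The order of the cytosolic enzymes differed between groups. *Vars*, for valine, had the 17th highest mean of the 21 cytosolic members in normal liver and the 4th highest in vehicle tumors. *Aars*, for alanine, had the 6th highest in normal liver, the 17th in vehicle tumors and the 21st, or lowest, in MLN0128 tumors. *Dars*, for aspartate, had the 2nd highest in normal liver and the 11th in vehicle tumors.

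**Figure D1:**
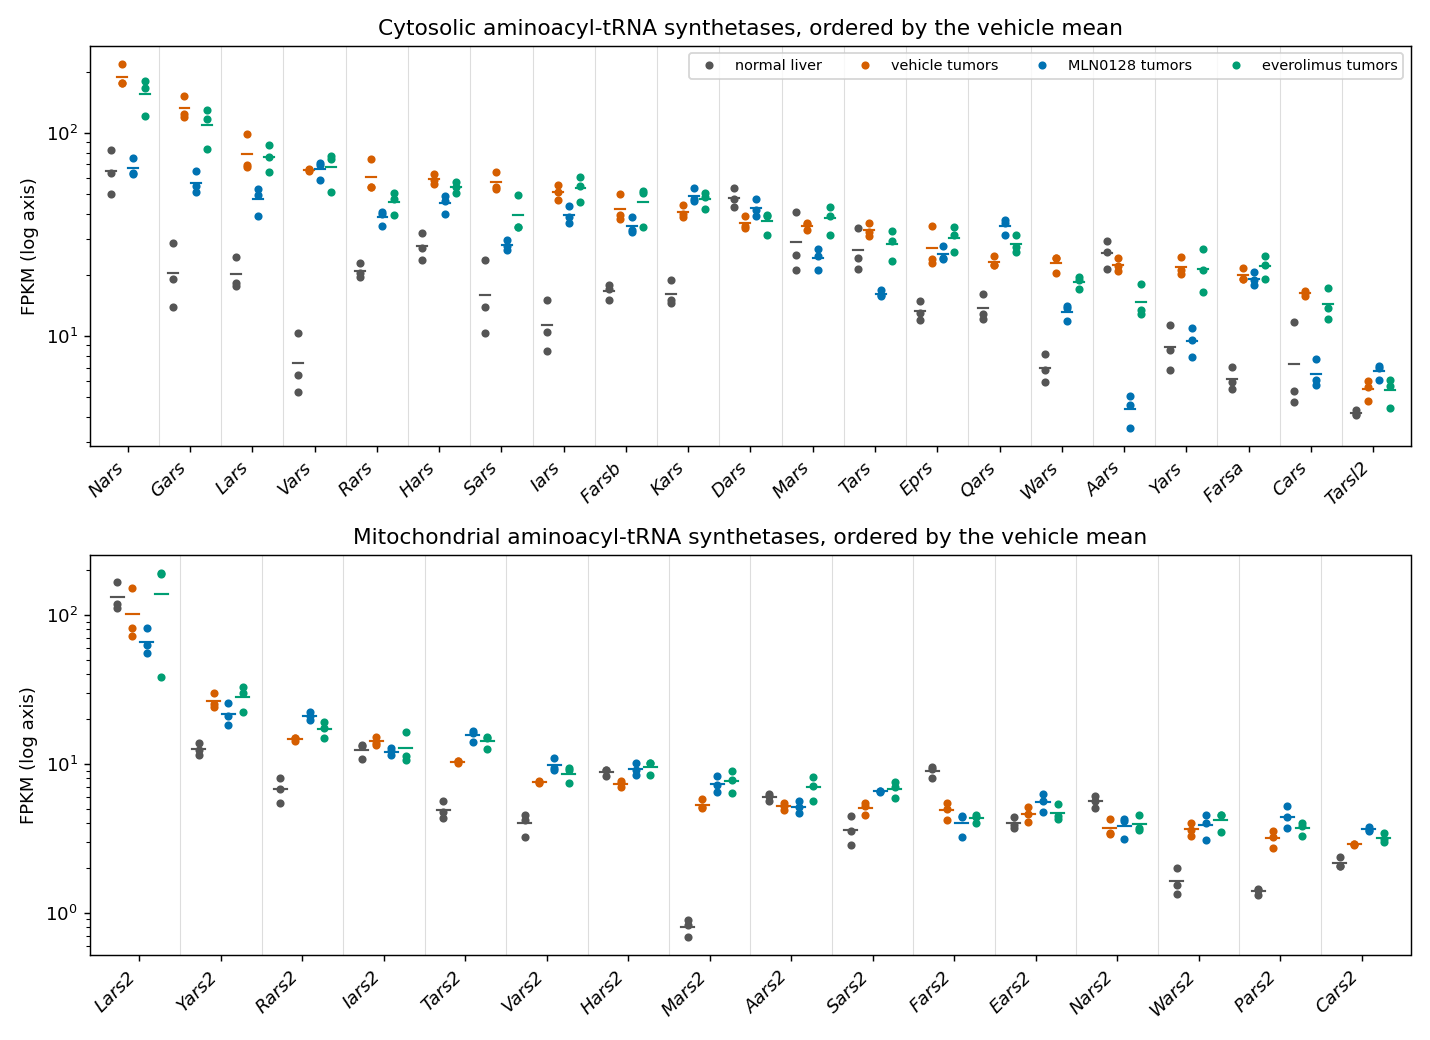
Level of the synthetases in each of the 12 libraries, in FPKM on a log axis. Points are libraries, short lines are group means and colours are the 4 groups, with the cytosolic genes above and the mitochondrial genes below, of which 1 is not shown. *Vars* lay at 5.30 to 10.3 FPKM in normal liver and at 65.0 to 66.4 FPKM in vehicle tumors, *Aars* was lowest in MLN0128 tumors, and *Lars2* spread widely within groups.

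Summed over the 21 cytosolic enzymes, the level was 411 ± 73.3 FPKM (SD, n = 3) in normal liver, 1041 ± 111 in vehicle tumors, 675 ± 38.7 in MLN0128 tumors and 953 ± 145 in everolimus tumors. The 12 enzymes of the ATF4 list carried most of the change with MLN0128, at 251 ± 66.8, 687 ± 82.0, 338 ± 27.2 and 601 ± 102 FPKM in the same order of groups. The other 9 cytosolic enzymes summed to 161 ± 8.09 FPKM in normal liver and to 353 ± 29.3, 337 ± 16.5 and 353 ± 45.6 FPKM in the tumor groups, which overlapped each other. The mitochondrial enzymes without *Lars2* summed to 89.9 ± 3.03, 126 ± 4.40, 144 ± 7.05 and 145 ± 17.5 FPKM.

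The libraries of a group also differed together. In normal liver, replicate 2 held the highest value for all 12 enzymes of the ATF4 list, at a sum of 325 FPKM against 232 and 195 FPKM in replicates 1 and 3, whereas replicate 2 was highest for 36.9% of all 14397 tested genes. The same replicate was highest for 16 of 19 other genes examined, *Atf4* and its known targets, and for 5 of the other 9 cytosolic enzymes. Among the vehicle tumors, replicate 2 was highest for 11 of the 12 and for 7 of the other 9 cytosolic enzymes, against 37.7% of all tested genes. Among the everolimus tumors, replicate 3 was highest for 10 of the 12 and for 4 of the other 9, against 32.2% of all tested genes.

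To see how the synthetases differed between tumor and liver, vehicle tumors were compared with normal livers. Of the 38 genes, 26 were higher in vehicle tumors and 3 were lower, 0 of which stayed lower with plain library totals (limma's moderated test on log2(FPKM + 1), Benjamini-Hochberg adjusted p under 0.05 over 14397 genes). Of all tested genes 36.0% were called higher and 33.0% lower, so calls were common in this comparison. The 3 tumors all lay above the 3 livers for 27 members and below them for 5, where 39.0% and 35.1% of all tested genes did so. The rise was a matter of the cytosolic enzymes above all, with 17 higher and 1 lower of 21 and a median log2 fold change of 1.29, against a median of 0.06 over all tested genes. The ATF4 list (9 higher and 0 lower of 12, median 1.39) and the other 9 cytosolic enzymes (8 higher and 1 lower, median 1.29) had similar medians. Of the 17 mitochondrial enzymes, 9 were higher and 2 lower, with a median of 0.29.

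The largest rise was that of *Vars*, the valyl-tRNA synthetase (ENSMUSG00000007029.16). Its values in normal liver were 6.45, 10.3 and 5.30 FPKM, and those in vehicle tumors were 66.4, 65.3 and 65.0 FPKM. The groups lay far apart, and the 3 tumors were closer to each other than the 3 livers. The mean was 8.92 times as high, with a log2 fold change of 3.04 (SE 0.208, limma Benjamini-Hochberg adjusted p = 2.28e-07). *Gars*, for glycine, rose from 19.0, 28.6 and 13.9 FPKM to 120, 152 and 124 FPKM, for a log2 fold change of 2.68 (SE 0.237, limma adjusted p = 1.50e-06).

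*Iars*, which charges isoleucine within the multisynthetase complex, went from 10.5, 15.1 and 8.40 FPKM to 46.9, 55.6 and 51.4 FPKM. Its log2 fold change was 2.12 (SE 0.182, limma adjusted p = 1.20e-06), and no tumor came near a normal liver. *Lars*, the leucyl enzyme of the same complex, which also serves as a leucine sensor upstream of mTORC1, rose from 17.7, 24.6 and 18.3 FPKM to 69.2, 99.0 and 68.1 FPKM. Its log2 fold change was 1.90 (SE 0.191, limma adjusted p = 3.92e-06). The further cytosolic genes called higher were *Sars* (1.85), *Wars* (1.59), *Farsa* (1.55), *Nars* (1.55), *Rars* (1.48), *Kars* (1.30), *Farsb* (1.29), *Yars* (1.24), *Cars* (1.15), *Hars* (1.08), *Eprs* (0.97), *Qars* (0.73) and *Tarsl2* (0.32), all as log2 fold changes. Both subunits of the phenylalanyl enzyme, *Farsa* and *Farsb*, were among them. *Tarsl2* lost its call in 5 of the 12 fits that left out a library, those without any of the normal livers or without vehicle replicate 1 or 3.

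*Dars*, for aspartate, was the cytosolic member that fell in the values as deposited, from 47.1, 43.3 and 53.3 FPKM in normal liver to 35.0, 39.1 and 34.2 FPKM in tumors. The groups did not overlap, and the log2 fold change was -0.40 (SE 0.128, limma adjusted p = 0.0160). Its call was lost without normal liver replicate 3 or vehicle replicate 3, and its direction rested on the scaling between libraries, with values of 0.52 with plain library totals and 0.10 after quantile normalization. *Aars* (-0.17), *Mars* (0.31) and *Tars* (0.33) did not pass the test, with adjusted p by limma of 0.363, 0.2 and 0.0970. For each of these 3 genes, all on the ATF4 list, the ranges of livers and tumors overlapped in the values as deposited. With plain library totals all 12 members of the list, these 3 included, were called higher in tumors. After quantile normalization 11 of the 12 were.

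Among the mitochondrial enzymes, *Mars2*, for methionine, stood out. It was the lowest member in normal liver, at 0.887, 0.827 and 0.687 FPKM, and reached 5.12, 5.80 and 5.04 FPKM in tumors. The mean was 6.65 times as high, and the log2 fold change of 1.81 (SE 0.128, limma adjusted p = 2.94e-07) understates this, because 1 was added to levels below 1. *Rars2*, for arginine, went from 6.76, 5.43 and 7.99 FPKM to 15.0, 14.2 and 15.0 FPKM, a log2 fold change of 1.04 (SE 0.133, limma adjusted p = 2.67e-05). *Yars2* (1.02), *Tars2* (0.95), *Wars2* (0.83), *Pars2* (0.79), *Vars2* (0.79), *Sars2* (0.41) and *Cars2* (0.29) were also called higher. The call was lost without normal liver replicate 1 for *Cars2*, and without normal liver replicate 3 or vehicle replicate 1 for *Sars2*.

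*Fars2*, for phenylalanine, fell from 8.05, 9.50 and 9.27 FPKM to 5, 4.21 and 5.44 FPKM (log2 fold change -0.76, SE 0.130, limma adjusted p = 0.000272). *Nars2*, for asparagine, fell from 6.10, 5.02 and 5.65 FPKM to 3.45, 4.28 and 3.40 FPKM (-0.49, SE 0.133, limma adjusted p = 0.00637). Both thus went against their cytosolic counterparts for the same amino acid, *Farsa*, *Farsb* and *Nars*, which were higher in tumors. With plain library totals both mitochondrial values turned positive, to 0.05 and 0.27. *Aars2*, *Ears2*, *Hars2*, *Iars2* and *Lars2* did not pass the test in the values as deposited, with log2 fold changes from -0.43 (*Lars2*) to 0.18 (*Iars2*). With plain library totals 14 of the 17 mitochondrial members were called higher.

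**Figure D2:**
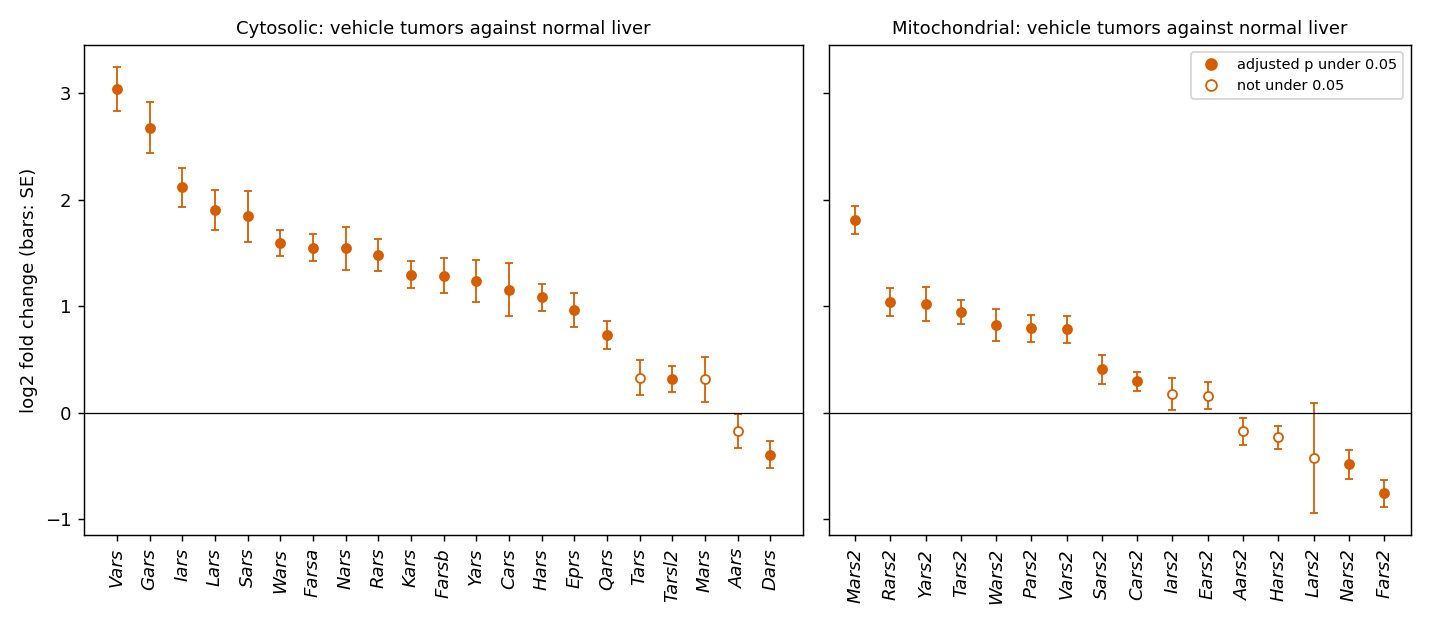
Log2 fold change of the synthetases in vehicle tumors against normal liver on the log2(FPKM + 1) scale, with bars for the SE. Filled points passed an adjusted p under 0.05 in limma's moderated test, and the cytosolic genes reach 3.04 for *Vars* whereas the mitochondrial genes, except *Mars2* at 1.81, lie at or below 1.04.

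The authors' values carry a scaling between libraries beyond their read totals, by factors of 0.591 to 0.602 in normal liver and 1.11 to 1.38 in tumors. With plain library totals the median of all tested genes moved to 0.63, and 35 members were higher and 0 lower. Relative to the median of all genes, the cytosolic median was 1.23 as deposited, 1.54 with library totals and 1.45 after quantile normalization, and the mitochondrial median was 0.23, 0.40 and 0.25.

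To ask what inhibition of the mTOR kinase did to these genes, MLN0128 tumors were compared with vehicle tumors. Here 11 members were lower, all of them cytosolic, and 6 were higher, of which 5 were mitochondrial. Of all tested genes 17.1% were called lower and 14.9% higher. The share of members called higher lay near that of all tested genes. The count of members higher thus did not set the members as a whole apart from other genes. The groups did not overlap for 14 members below and 13 above vehicle, against 23.4% and 22.1% of all tested genes. The fall lay mostly on the ATF4 list, where 9 of 12 were called lower and 0 higher, all 12 had negative log2 fold changes and the median was -0.99. Of the other 9 cytosolic enzymes 2 were lower and 1 was higher, with a median of 0.02, and the median over all tested genes was -0.01. The mitochondrial enzymes had 5 higher and 0 lower of 17, with a median of 0.25.

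*Aars* fell most. It was at 22.2, 21 and 24.1 FPKM with vehicle and at 4.56, 3.54 and 5.08 FPKM with MLN0128. The groups were widely separated, and the MLN0128 tumors also lay below the normal livers (26.0, 29.4 and 21.3 FPKM). The mean fell to 0.196 of that with vehicle, with a log2 fold change of -2.13 (SE 0.162, limma Benjamini-Hochberg adjusted p = 2.14e-05), and it was called under all 24 alternative settings. Of the exon bases of *Aars* (ENSMUSG00000031960.14, chromosome 8, 111033144 to 111057664), 14.3% are shared with *Exosc6* on the same strand.

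*Nars* was at 175, 218 and 175 FPKM with vehicle and at 63.8, 62.9 and 75.4 FPKM with MLN0128, within the range of the normal livers (49.8 to 82.7 FPKM). With plain library totals the MLN0128 tumors lay above every normal liver for *Nars* (73.5 to 104 against 29.5 to 49.6). Its log2 fold change was -1.47 (SE 0.201, limma adjusted p = 0.000490). *Cars*, for cysteine, went from 16.2, 16.7 and 15.8 FPKM to 7.70, 5.74 and 6.08 FPKM (-1.21, SE 0.250, limma adjusted p = 0.00411). *Gars* went from 120, 152 and 124 FPKM to 54.9, 50.9 and 65.1 FPKM (-1.20, SE 0.237, limma adjusted p = 0.00322), still above every normal liver. In each of these genes all 3 treated tumors lay below all 3 vehicle tumors.

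The further members called lower were *Yars* (-1.14), *Sars* (-0.996), *Tars* (-0.99), *Wars* (-0.75), *Lars* (-0.72), *Rars* (-0.63) and *Hars* (-0.39), as log2 fold changes. *Rars* and *Hars*, for arginine and histidine, are not on the ATF4 list. *Tars*, at 15.7, 15.9 and 16.8 FPKM with MLN0128, lay below all normal livers (21.5 to 34.0 FPKM) in the values as deposited, but not with plain library totals (18.6 to 23.2 against 12.7 to 20.4). *Mars* (-0.52, limma adjusted p = 0.0784), *Iars* (-0.37, 0.138) and *Eprs* (-0.08, 0.734) were the members of the ATF4 list that did not pass. *Iars* held the ATF4 letters in its window, so the letters alone did not separate called from uncalled members. The call of *Lars* was lost without vehicle replicate 2 or MLN0128 replicate 2, and that of *Hars* in 6 of the 12 fits that left out a library, those without normal liver replicate 1, any vehicle tumor or MLN0128 replicate 1 or 2.

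*Qars*, the glutaminyl enzyme of the multisynthetase complex, was the cytosolic member that rose, from 22.4, 24.9 and 22.3 FPKM to 37.2, 36.2 and 31.3 FPKM. The groups did not overlap, and the log2 fold change was 0.57 (SE 0.128, limma adjusted p = 0.00638). *Vars*, the member that had risen most in tumors, stayed there, at 71.3, 58.9 and 69.5 FPKM with MLN0128 (0.02, SE 0.208, limma adjusted p = 0.961). *Dars*, *Farsa*, *Farsb*, *Kars* and *Tarsl2* did not pass either, with log2 fold changes from -0.27 (*Farsb*) to 0.26 (*Kars*).

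Of the mitochondrial enzymes, *Tars2*, for threonine, rose from 10.5, 10.4 and 10.1 FPKM to 16.1, 16.7 and 14.1 FPKM (0.55, SE 0.116, limma adjusted p = 0.00446). *Rars2* rose from 15.0, 14.2 and 15.0 FPKM to 20.9, 22.4 and 19.6 FPKM (0.48, SE 0.133, limma adjusted p = 0.0172). For threonine and arginine, the cytosolic *Tars* and *Rars* were lower and the mitochondrial *Tars2* and *Rars2* higher in the same tumors. *Mars2* (0.39) and *Pars2* (0.38) were also called higher. Their calls, and that of *Rars2*, were lost in some fits that left out a library. *Rars2* lost it without MLN0128 replicate 1 or 2, *Mars2* without vehicle replicate 1 or 3 or MLN0128 replicate 1 or 3, and *Pars2* without normal liver replicate 1 or 2, vehicle replicate 2 or 3, or MLN0128 replicate 2 or 3. Without vehicle replicate 3, the count of members higher went from 6 to 3, and fitted with only the MLN0128 and vehicle tumors it was 3, with 12 lower.

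With plain library totals, which moved the median of all tested genes to 0.10, 14 members were higher and 10 lower, and after quantile normalization 10 were higher and 8 lower, against 6 and 11 as deposited. The ATF4 list kept 0 higher in both cases, with 9 and 8 lower. Of the other cytosolic enzymes, 4 were higher and 1 was lower with library totals, and 3 were higher and 0 lower after quantile normalization. MLN0128 replicate 3 was the treated library without *Xist* RNA. Against the vehicle tumors it alone gave 5 members lower, which were *Aars*, *Nars*, *Yars*, *Tars* and *Wars*, and 2 higher, among them *Pars2*, with the spread of the lone library taken to be that of the other groups.

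**Figure D3:**
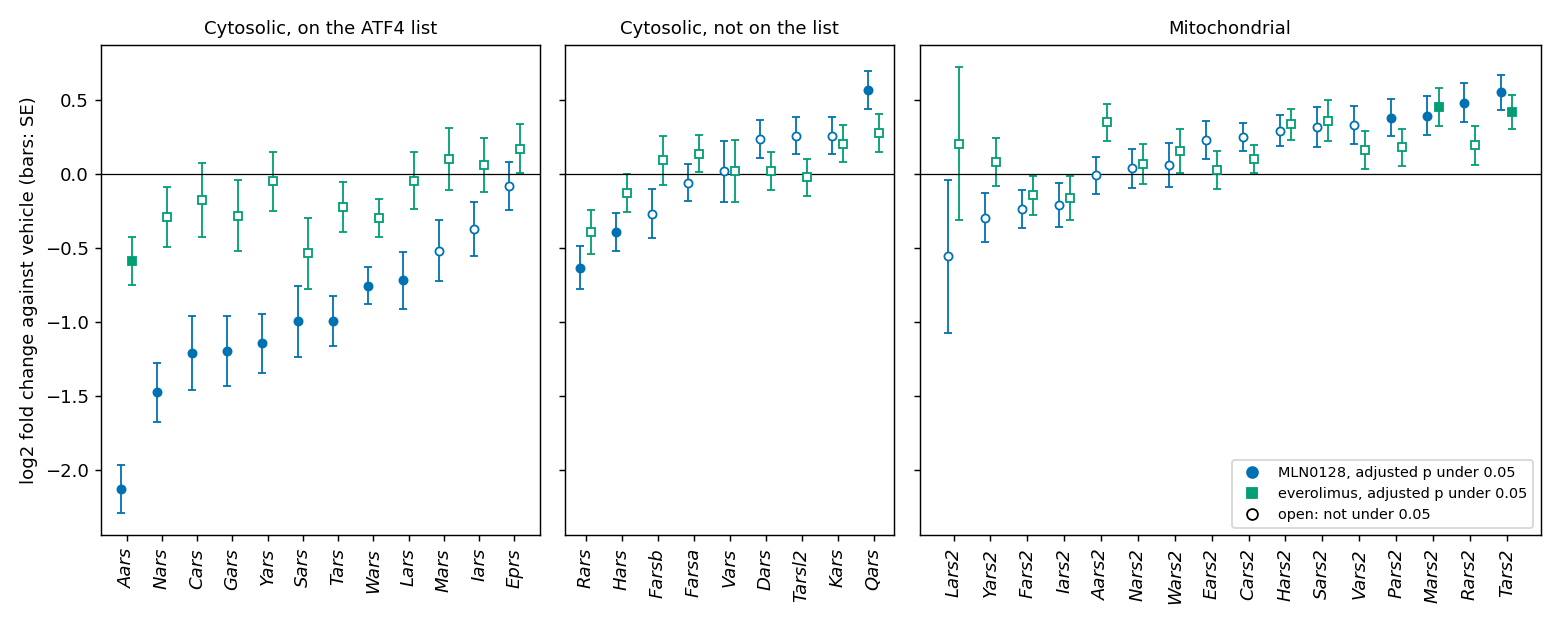
Log2 fold change of the synthetases against vehicle with MLN0128 (circles) and everolimus (squares) on the log2(FPKM + 1) scale, with bars for the SE. Filled symbols passed an adjusted p under 0.05 in limma's moderated test, and the 12 cytosolic genes on the ATF4 list all lie below 0 with MLN0128, down to -2.13 for *Aars*, whereas with everolimus *Aars* at -0.58 is the filled symbol among them.

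Everolimus was set against the same 3 vehicle tumors. Of the 38 members 1 was lower and 2 were higher, and of all tested genes 6.05% were called lower and 3.78% higher. These counts set the members apart from other genes in neither direction. All everolimus tumors lay below all vehicle tumors for 4 members and above them for 8, against 14.8% and 17.6% of all tested genes. *Aars* was the member called lower, at 12.8, 13.4 and 18.1 FPKM against 22.2, 21 and 24.1 FPKM with vehicle. The log2 fold change was -0.58 (SE 0.162, limma adjusted p = 0.0431), and the groups did not overlap. The call was lost in 7 of the 12 fits that left out a library, those without normal liver replicate 1, any vehicle tumor, MLN0128 replicate 1, or everolimus replicate 1 or 2.

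*Mars2* rose to 8.88, 6.40 and 7.82 FPKM from 5.12, 5.80 and 5.04 FPKM (0.45, SE 0.128, limma adjusted p = 0.0471). *Tars2* rose to 15.2, 12.5 and 14.8 FPKM from 10.5, 10.4 and 10.1 FPKM (0.42, SE 0.116, limma adjusted p = 0.0441). The everolimus tumors lay above all vehicle tumors for both genes. Both calls were close to the threshold. *Mars2* kept its call in 2 and *Tars2* in 5 of the 12 fits that left out a library, and the count of members higher ran from 0 to 4, with 4 without everolimus replicate 2. It was 1 without normal liver replicate 2 or 3, and 0 without normal liver replicate 1, any vehicle tumor, MLN0128 replicate 1 or everolimus replicate 1 or 3. The count of members lower was 0 in the 7 fits in which *Aars* lost its call. With a pseudocount of 0.1, or fitted with only the everolimus and vehicle tumors, 0 members passed in either direction.

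The other 20 cytosolic members did not pass. The lowest of them were *Sars* (-0.54, limma adjusted p = 0.175), *Rars* (-0.39, 0.111) and *Wars* (-0.30, 0.157), and for these 3 genes all everolimus tumors lay below all vehicle tumors. The 12 genes of the ATF4 list had a median of -0.20, the other 9 cytosolic genes of 0.02, the mitochondrial genes of 0.18 and all tested genes of 0.03.

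The drugs were given at the same dose and, by the labels, for the same time, and their tumors were compared directly. With MLN0128, 8 members were lower than with everolimus and 0 were higher, where 5.54% of all tested genes were called lower and 3.99% higher. The MLN0128 tumors all lay below the everolimus tumors for 12 members and above them for 3, against 15.2% and 12.5% of all tested genes. All 8 are on the ATF4 list, whose 12 members had a median log2 fold change of -0.72, all 12 of them negative. They were *Aars* (-1.54), *Nars* (-1.18), *Yars* (-1.09), *Cars* (-1.03), *Gars* (-0.92), *Tars* (-0.77), *Lars* (-0.67) and *Wars* (-0.46). The other 9 cytosolic genes had a median of 0.00 and the mitochondrial genes of -0.04, and all tested genes had a median of -0.03.

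*Aars*, at 4.56, 3.54 and 5.08 FPKM with MLN0128 and at 12.8, 13.4 and 18.1 FPKM with everolimus, had an SE of 0.162 and a limma adjusted p of 0.00146. *Nars*, at 63.8, 62.9 and 75.4 FPKM against 166, 121 and 181 FPKM, had an SE of 0.201 and a limma adjusted p of 0.00961. *Yars*, the tyrosyl enzyme, was at 10.9, 9.54 and 7.85 FPKM against 21.2, 16.5 and 26.8 FPKM (SE 0.198, limma adjusted p = 0.0112). *Cars* was at 7.70, 5.74 and 6.08 FPKM against 13.8, 12.1 and 17.2 FPKM (SE 0.250, limma adjusted p = 0.0286).

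In these 4 genes all MLN0128 tumors lay below all everolimus tumors. *Aars* and *Nars* were called in each of the 12 fits that left out a library, *Yars* in 11 (lost without everolimus replicate 3), *Tars* in 9, *Cars* in 7, *Gars* in 5, *Wars* in 4 and *Lars* in 3. The count of members lower ran from 2 without everolimus replicate 3 to 12 without everolimus replicate 2. Everolimus replicate 2 held the lowest value of its group for 10 of the 12 genes of the list. It also did so for 8 of the other 9 cytosolic genes, 14 of the 17 mitochondrial genes and 44.6% of all tested genes. The count was 3 without MLN0128 replicate 1 or everolimus replicate 1, 4 without MLN0128 replicate 2, and 5 without normal liver replicate 1 or vehicle replicate 1 or 3. Only *Aars* was called with MLN0128 replicate 3 alone. With plain library totals, and likewise after quantile normalization, 3 members were higher, of which 1 was mitochondrial, and 5 lower. Fitted with only the MLN0128 and everolimus tumors, 0 members passed, and with the replicate number as a block 4 were lower.

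In the values as deposited, 0 mitochondrial members passed limma's moderated test between the drugs. At an unadjusted p under 0.05, *Aars2* (-0.36) and *Yars2* (-0.38) were lower with MLN0128 than with everolimus, with limma adjusted p of 0.0958 and 0.163. No member was called higher, and *Qars* (0.29) and *Tarsl2* (0.28) had an unadjusted p under 0.05 by limma with adjusted p of 0.170 and 0.171.

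*Atf4* and known ATF4 targets outside the synthetases, 19 genes together, were followed in the same libraries. Of the 19, 17 were higher and 1 was lower in vehicle tumors than in normal liver, against 36.0% and 33.0% of all tested genes. With MLN0128 against vehicle 16 were lower and 0 higher, against 17.1% and 14.9% of all tested genes. With everolimus against vehicle 4 were lower and 0 higher, against 6.05% and 3.78%, and with MLN0128 against everolimus 11 were lower and 0 higher, against 5.54% and 3.99%. *Atf4*, which is counted among the 19, measured 61.7, 68.4 and 49.3 FPKM in normal liver and 148, 168 and 130 FPKM with vehicle. *Atf4* was at 33.8, 35.6 and 30 FPKM with MLN0128 and at 96.9, 86.3 and 141 FPKM with everolimus. Its MLN0128 tumors lay below the normal livers in the values as deposited, but above them with plain library totals (41.5 to 42.9 against 29.2 to 41.0), whereas those of *Aars* lay below in both (4.13 to 7.02 against 12.6 to 17.6 with library totals). Its log2 fold change with MLN0128 against vehicle was -2.13 (SE 0.188, limma adjusted p = 5.41e-05).

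The largest falls with MLN0128 among these genes were those of *Chac1*, which degrades glutathione (-4.23), *Nupr1*, a stress-induced chromatin protein (-3.93), and *Trib3*, a pseudokinase induced by ATF4 (-3.58). *Psat1*, of serine synthesis, went from 218, 198 and 195 FPKM with vehicle to 61.9, 54.5 and 89.8 FPKM with MLN0128. Its log2 fold change of -1.58 (limma adjusted p = 0.0535) did not pass. The normal livers were at 0.850, 9.78 and 0.428 FPKM. The 9.78 FPKM was that of normal liver replicate 2, the library with the highest sum over the synthetases of the ATF4 list.

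The partners of the synthetases were examined in the same way. Of 19 further genes of tRNA charging, 11 were higher and 3 lower in vehicle tumors than in normal liver, where 36.0% and 33.0% of all tested genes were. They included all 3 scaffolds of the multisynthetase complex, *Aimp2* (1.74), *Eef1e1* (1.43) and *Aimp1* (0.44), the tRNA exporter *Xpot* (1.26) and *Trnt1* (1.21), which adds the CCA end. *Prorsd1* (-1.72), *Gatb*, of the mitochondrial glutamyl-tRNA amidotransferase (-1.09), and *Sepsecs*, of selenocysteine synthesis (-0.97), were lower.

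With MLN0128, 2 of these 19 were higher than with vehicle, *Sepsecs* (0.57) and *Gatb* (0.33), and 3 were lower, among them *Qrsl1* (-0.65) and *Prorsd1* (-0.35). These shares lie near those of all tested genes, of which 14.9% were higher and 17.1% lower, so the counts set the partners apart from other genes in neither direction. *Qrsl1* and *Gatb* encode subunits of the same amidotransferase and went opposite ways. The 3 scaffolds of the complex did not pass with either drug. *Sepsecs*, *Gatb*, *Qrsl1* and *Prorsd1* did not pass with everolimus.

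Inside the cytosolic set, the 8 enzymes of the multisynthetase complex and the 13 outside it had medians of 1.13 and 1.29 in vehicle tumors against normal liver. With MLN0128 against vehicle the medians were -0.23 and -0.99. Called lower were 2 of the 8 and 9 of the 13, against 17.1% of all tested genes. The ATF4 list holds 4 of the complex (*Eprs*, *Iars*, *Lars* and *Mars*) and 8 outside it, so the groupings overlap. By structural class, 5 of 9 class I and 6 of 11 class II enzymes were called lower with MLN0128, against the same 17.1%.

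Markers of other cell types were summed beside these comparisons, and the most abundant marker weighs most in such a sum. The 4 biliary markers summed to 16.97 to 52.5 FPKM with vehicle, 0.743 to 3.55 FPKM with MLN0128 and 0.937 to 4.28 FPKM with everolimus. Of the 4, 3 were tested and called lower with each drug. Of all tested genes, 17.1% were called lower with MLN0128 and 6.05% with everolimus. The 6 markers of Kupffer cells and macrophages summed to 58.3 to 92.2 FPKM with vehicle, 23.5 to 34.2 FPKM with MLN0128 and 43.4 to 132 FPKM with everolimus, and 0 of them was below 0.5 FPKM in any group. The 8 hepatocyte markers summed to 5208 to 8446, 2606 to 5684 and 4932 to 9687 FPKM in the same order. Of these 8, 2 were called higher and 2 lower with MLN0128, and 1 higher and 1 lower with everolimus. Of the 6 macrophage markers, 2 were called lower with MLN0128 and 1 with everolimus. With either drug, 0 of 5 endothelial and 0 of 5 stellate and fibroblast markers were called. The part of these cell types in the differences between synthetases was not tested.

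*Lars2*, the mitochondrial leucyl-tRNA synthetase, was set apart because of its wide spread within groups. The normal livers measured 166, 118 and 112 FPKM, the vehicle tumors 81.8, 152 and 72 FPKM, the MLN0128 tumors 62.3, 81.1 and 55.1 FPKM and the everolimus tumors 190, 38.0 and 189 FPKM. Its group means, from 66.2 to 139 FPKM, stood above those of the next mitochondrial enzyme, *Yars2*, from 12.5 to 28.3 FPKM. It passed no comparison, with an SE of 0.517 that was the largest of all members. A pair of entries chosen after these values were seen, CT010467.1, annotated as ribosomal RNA, and Gm23935, a 57-base entry annotated as a miRNA, varied alongside it.

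CT010467.1 measured 2370, 2090 and 1320 FPKM in the normal livers, 1330, 2170 and 1240 FPKM with vehicle, 743, 853 and 774 FPKM with MLN0128 and 2530, 726 and 2640 FPKM with everolimus. The order of the 3 libraries was the same as for *Lars2* in normal liver and with vehicle, and everolimus replicate 2 was lowest for both. Gm23935 had the order of *Lars2* in normal liver, with vehicle and with MLN0128. The mitochondrial ribosomal RNA mt-Rnr2 had the order of *Lars2* with vehicle and with everolimus, but not in normal liver or with MLN0128. The annotated transcripts of *Lars2* share no stretch of 21 bases with either entry on either strand. Whether reads of ribosomal RNA enter the value of *Lars2* was not tested.

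**Figure D4:**
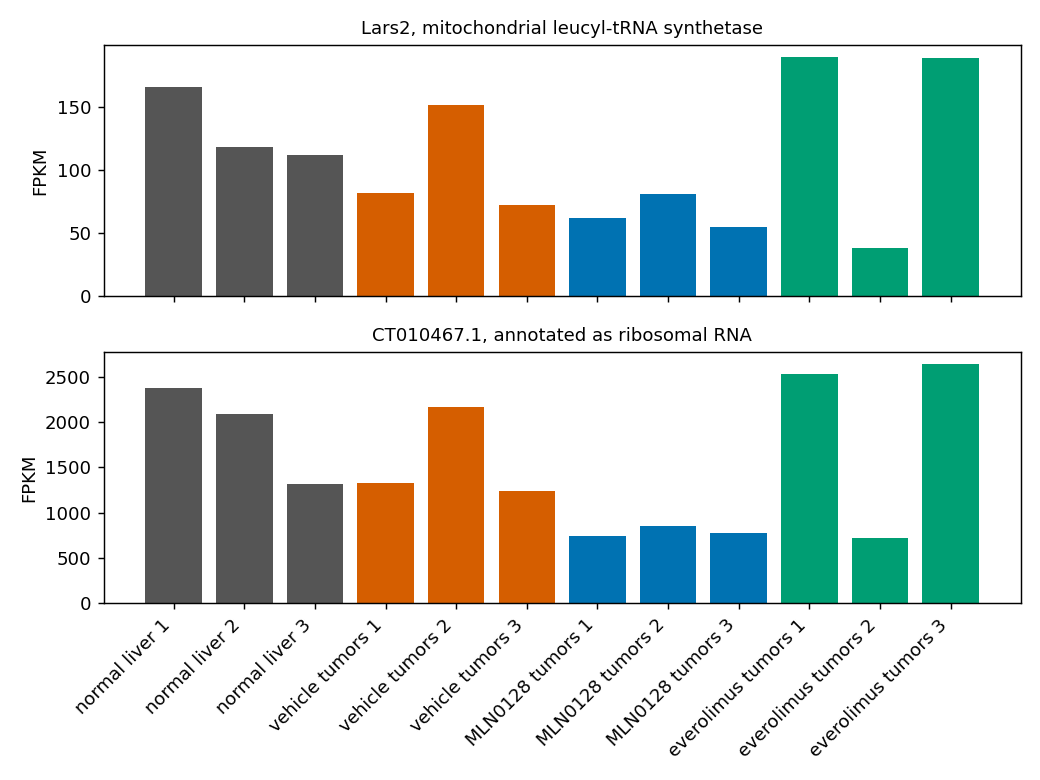
*Lars2* (top) and the ribosomal RNA entry CT010467.1 (bottom) in each of the 12 libraries, in FPKM, coloured by group. Vehicle replicate 2 is the highest and everolimus replicate 2 the lowest of its group in both panels, at 152 and 38.0 FPKM for *Lars2* and at 2170 and 726 FPKM for the entry.

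Some members share exon bases with a neighbour, and the sources used here do not say whether strand was used in counting. Of the 38 members 15 share any exon bases with another gene, and 3 share at least 10% with 1 other gene, among them *Aars* and *Iars2*, for which 22.9% lie opposite *Rab3gap2*. *Hars* and *Hars2* start head to head and share 195 bases, which are 7.97% of the exon bases of *Hars* and 4.56% of those of *Hars2*.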

How the data were processed

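The authors sent RNA to Novogene for library preparation and sequencing, counted reads by Ensembl gene, mapped these to Entrez genes and named them with org.Mm.eg.db. The deposited values are FPKM, linear and rounded to 3 significant digits. The submitters' processing notes name GRCm38 and FastQC 0.11.7. The aligner is not given in the sources used here. All 12 columns were used, each the tissue of a separate sample by the labels.

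The main test was limma's moderated test (limma 3.58.1 in R 4.3.3, with an intensity trend) on log2(FPKM + 1), with all 12 libraries in 1 model and 8 residual degrees of freedom. A gene entered if 3 or more libraries reached 0.5 FPKM, and p-values were adjusted over all 14397 such genes by the method of Benjamini and Hochberg at 0.05. The authors used edgeR's glmTreat, and limma's counterpart was an alternative. Differences on this scale understate the change of genes with low levels. The members and all lists were chosen with earlier results of these data known.

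Each comparison counts all members, but the results of some genes are not reported here by name or shown in the figures. Library values were given for the 4 cytosolic and 2 mitochondrial called members with the largest change and no overlap between groups, and for members chosen later to show where a gene did not change or went the other way. At most 4 genes of a further list were named, besides *Atf4*, *Psat1*, the scaffolds and the called partners, which were chosen after their values were seen.

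FPKM multiplied by the exon length of GENCODE M21 came within 0.1 of whole reads for 98.2% to 98.8% of values under 20 reads, where chance gives 20.0%, and an alternative ran limma's voom on these reads. The reads were computed back from rounded values, so large counts are approximate, and they carry the spread between samples besides counting error. Figures were drawn with matplotlib 3.10.9 from tables made with pandas 2.3.3. The fit was tested on simulated data. Alternatives changed the threshold, pseudocount, filter, scaling, trend and libraries in the model, used the replicate number as a block, or dropped a library.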

Additional observations from a re-analysis of the deposited data

How the results depend on the processing

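Counts are of members higher and lower. For vehicle tumors against normal liver (26 and 3), limma's treat at 1.5-fold gave 17 and 0, the moderated test limited to changes above 1.5-fold gave 1 lower, and plain library totals gave 0 lower, with *Dars* at 0.52, *Fars2* at 0.052 and *Nars2* at 0.27 on the log2 scale. Quantile normalization put *Dars* at 0.10. Leaving out each library gave 24 to 27 and 2 to 3. For MLN0128 against vehicle (6 and 11), treat gave 0 and 2, the limit of 1.5-fold gave 0 higher, library totals 14 higher, quantile normalization 10 higher, only the groups compared 3 higher, and leaving out MLN0128 replicates 1 and 2 gave 2 and 5. Leaving out each library gave 3 to 7 and 9 to 12. For everolimus against vehicle (2 and 1), treat, pseudocount 0.1, only the groups compared and the replicate block each gave 0 and 0, the limit of 1.5-fold gave 0 higher, no filter gave 1 higher, and library totals gave 0 lower. Leaving out each library gave 0 to 4 and 0 to 1. For MLN0128 against everolimus (0 and 8), treat and only the groups compared gave 0 lower, library totals and quantile normalization each gave 3 and 5, the replicate block gave 4 lower, and leaving out MLN0128 replicates 1 and 2 gave 1 lower. Leaving out each library gave 0 higher throughout and 2 to 12 lower. The cause was not tested.

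The labels give the groups the same replicate numbers. Deviations of same-numbered libraries from their group means correlated with r from -0.29 to 0.15 (median -0.06). Those of differently numbered libraries correlated with r from -0.29 to 0.40 (median 0.03). Same-numbered libraries were thus not more alike, but deviations from means of 3 libraries cannot exclude a pairing or a shared batch. With the replicate number as a block, 25 members were higher and 3 lower in vehicle tumors, and 5 higher and 10 lower with MLN0128 against vehicle.

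With 3 samples a group, limma's moderated test can miss changes near the spread between samples. The lowest recovered count of a member was 44 reads, in the least abundant mitochondrial genes, and 214 for a cytosolic gene.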
